A study of Mus musculus with 14 samples.

Results

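The genes described here are the 3 transcription factors of the MiT/TFE family that were named for this account (Tfeb, Tfe3 and Mitf), and folliculin (Flcn) with its partners Fnip1 and Fnip2. With them stand the Rag GTPases Rraga, Rragc and Rragd, and the Ragulator anchor Lamtor1. They were taken by gene symbol from the deposited count table, each represented by the transcript row with the largest sum over all libraries, and make up 10 of the 40800 genes of the table. The study measured total RNA of mouse embryonic fibroblasts, connective tissue cells grown from embryos, by RNA sequencing in 14 libraries, 2 in each of 7 groups. The groups were amino acid starvation for 3, 6 and 12 h, glucose starvation for 3, 6 and 12 h, and a control at 0 h. The labels give no genotype, strain or transgene for any group, and all groups were grown in DMEM with serum before the experiment. For starvation the cells were washed and placed in DMEM that lacked amino acids or glucose and held dialyzed serum, and they were later frozen in that serum with DMSO. Control cells were collected without starvation and frozen with ordinary serum. There was no control for the fresh medium, the dialyzed serum or the hours in culture. In a comparison with control these cannot be told apart from the lack of the nutrient. Separate cultures are not stated for the libraries within a group, so the p-values measure the spread between these libraries, which may be technical.

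As background, MiT/TFE factors are basic helix-loop-helix leucine zipper proteins that bind E-box elements and switch on genes of lysosomes and autophagy. In fed cells, heterodimers of RagA or RagB with RagC or RagD are held on the lysosome by the Ragulator complex and bring both the kinase mTORC1 and TFEB or TFE3 there. The factors are then phosphorylated and kept in the cytosol. The folliculin complex is the GTPase-activating protein for RagC and RagD. When amino acids are lost the factors enter the nucleus, and Flcn, the Fnip genes and Rragd are among the genes they are known to switch on in human and mouse cells. The measurements below are RNA levels and carry no information on phosphorylation or on where a protein was in the cell.

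The start regions of 5 of the genes are shown. An E-box was found in 3 of them, and the others, Flcn and Rragd, were called at least 2-fold higher at 12 h of both starvations and held none. Mitf, called at least 2-fold higher at the same times, held none in its 3 windows either and is not shown. RefSeq promoter windows, running from 250 bases before to 50 bases after the annotated start on build GRCm38.p6, were found for all 10 genes, with 15 windows in all because Tfeb, Tfe3 and Mitf have several starts. Both strands were searched for the E-box core CACGTG and for TCACGTG, which contains it and is part of the CLEAR element of lysosomal genes. The M-box TCATGTG and the C/EBP-ATF core TGATGNAA were searched too. Capitals mark the matches, and the strand is that of the gene, 5′ to 3′.
Fnip1 (chr11:54437929-54438228, plus strand): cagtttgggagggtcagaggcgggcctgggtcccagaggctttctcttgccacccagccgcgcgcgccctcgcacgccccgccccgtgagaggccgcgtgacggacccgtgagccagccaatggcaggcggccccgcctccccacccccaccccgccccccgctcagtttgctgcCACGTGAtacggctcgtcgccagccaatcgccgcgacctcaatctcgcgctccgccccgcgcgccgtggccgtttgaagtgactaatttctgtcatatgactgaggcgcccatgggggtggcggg
Rragc (chr4:123917183-123917482, plus strand): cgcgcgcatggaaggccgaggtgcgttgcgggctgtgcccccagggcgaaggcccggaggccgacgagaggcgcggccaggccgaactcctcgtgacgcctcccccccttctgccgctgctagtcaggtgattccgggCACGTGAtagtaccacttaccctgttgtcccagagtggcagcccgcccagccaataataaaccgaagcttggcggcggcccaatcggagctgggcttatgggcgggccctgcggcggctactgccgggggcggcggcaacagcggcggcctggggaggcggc
Lamtor1 (chr7:101905587-101905886, plus strand): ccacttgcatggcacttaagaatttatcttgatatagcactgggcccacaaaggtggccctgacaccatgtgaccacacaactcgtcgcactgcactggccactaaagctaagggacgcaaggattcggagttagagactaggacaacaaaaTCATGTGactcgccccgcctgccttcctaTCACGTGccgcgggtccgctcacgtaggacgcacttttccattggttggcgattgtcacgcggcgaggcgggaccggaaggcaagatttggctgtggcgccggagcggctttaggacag
Flcn (chr11:59809990-59810289, minus strand): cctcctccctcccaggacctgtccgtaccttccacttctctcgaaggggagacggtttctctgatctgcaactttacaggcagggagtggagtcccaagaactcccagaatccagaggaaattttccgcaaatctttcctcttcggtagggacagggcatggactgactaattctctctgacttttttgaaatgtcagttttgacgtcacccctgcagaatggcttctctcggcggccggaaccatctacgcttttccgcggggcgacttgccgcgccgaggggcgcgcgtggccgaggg
Rragd (chr4:32982748-32983047, plus strand): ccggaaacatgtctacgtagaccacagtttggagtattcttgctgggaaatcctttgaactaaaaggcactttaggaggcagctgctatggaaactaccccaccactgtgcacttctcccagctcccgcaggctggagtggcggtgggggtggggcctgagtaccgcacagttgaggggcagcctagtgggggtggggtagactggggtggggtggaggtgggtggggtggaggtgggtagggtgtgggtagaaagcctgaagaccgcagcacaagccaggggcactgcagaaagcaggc

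The E-box core lay 75 bases before the start in Fnip1, 112 bases before it in Rragc and 68 bases before it in Lamtor1. All 3 matches were part of the longer TCACGTG, read on the opposite strand as CACGTGA in Fnip1 and Rragc, and Lamtor1 also held an M-box 98 bases before its start. None of the 10 genes had the C/EBP-ATF core in these windows. Of all 32851 mouse promoter windows, 7.15% held the E-box core, 3.77% held TCACGTG, 3.77% held the M-box and 3.97% held the C/EBP-ATF core. Counted by gene, with any window of a gene, these shares were 8.09%, 4.29%, 4.31% and 4.51% of 27025 genes. The matches describe letters in a window and are not evidence of binding. Of the 3 genes with an E-box, Fnip1 and Rragc were higher in starved cells, and Lamtor1 was lower in amino acid-starved cells.

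The rows used, 1 a gene, held between 35270758 and 55349652 reads in each library. Of the genes, 17696, all 10 described here included, had enough reads to be tested. Collagen and other fibroblast markers were present in all groups, apart from Thy1, which was at 0 in 13 of 14 libraries. The summed level of the 8 fibroblast markers was 7016 to 7737 CPM (reads scaled to the size of the library) in control cells. It was 6935 to 7213 CPM, 4723 to 4842 CPM and 2141 to 2345 CPM at 3, 6 and 12 h of amino acid starvation, and 8348 to 8607 CPM, 7612 to 7716 CPM and 5232 to 5267 CPM at 3, 6 and 12 h of glucose starvation. Of the 6 melanocyte markers, listed because Mitf is best known from melanocytes, Tyr, Tyrp1, Dct and Mlana were at 0 in all 14 libraries and the sum was 0.614 to 1.79 CPM. Nearly all of that sum was Pmel, at 0.57 to 1.79 CPM, with Sox10 at 0 in 13 libraries. Of 6 macrophage and osteoclast markers Adgre1 and Acp5 were at 0 in all 14 libraries and Ptprc in 12, while Csf1r was 10.9 to 17.7 CPM. The sum of these 6 was 14.1 to 19.9 CPM in the amino acid-starved groups and 15.0 to 18.3 CPM in the glucose-starved groups, against 11.6 to 12.2 CPM in control cells. The 4 endothelial markers summed to 13.7 to 23.5 CPM in the amino acid-starved groups and 12.6 to 22.9 CPM in the glucose-starved groups, against 4.21 to 5.08 CPM in control cells. That sum was nearly all Kdr, at 3.90 to 23.0 CPM, while Pecam1, Cdh5 and Tek reached at most 0.325, 0.345 and 0.699 CPM. The 3 muscle markers, of which Myog was at 0 in 13 libraries, summed to 4.14 to 4.53 CPM in control cells. Their sum was 4.81 to 6.24 CPM, 1.32 to 1.56 CPM and 0.590 to 0.736 CPM at 3, 6 and 12 h of amino acid starvation, and 4.85 to 5.66 CPM, 3.27 to 3.57 CPM and 1.84 to 1.86 CPM at 3, 6 and 12 h of glucose starvation. The part of these markers in the results below was not tested. Bulk RNA cannot tell fewer cells of a type from less RNA per cell.

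Most of the 10 genes were higher in starved than in control cells, and so were many genes of these cells. The test was edgeR's quasi-likelihood test across all tested genes, with Benjamini-Hochberg adjustment and a threshold of 0.05. Amino acid starvation gave 6 genes higher and 1 lower at 3 h, 7 higher and 2 lower at 6 h, and 7 higher and 1 lower at 12 h. The background for those counts was 27.9% of all tested genes called higher and 32.1% lower at 3 h, 32.3% and 33.3% at 6 h, and 34.9% and 32.0% at 12 h. Glucose starvation gave 7 genes higher and 1 lower at 3 h, 6 higher and 1 lower at 6 h, and 9 higher and 1 lower at 12 h. There the background was 20.3% of all tested genes higher and 23.1% lower at 3 h, 23.3% and 24.2% at 6 h, and 30.4% and 28.0% at 12 h. All 6 of these comparisons share the same 2 control libraries. Without replicate 1 of the 3 h glucose group, 5 genes were called at that time. The share of genes called higher was thus above the background in each, and the share called lower was below it.

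Most of the called changes were smaller than 2-fold. Called changes of at least 2-fold, all upward, were found for 3 genes at 3 h of amino acid starvation (Fnip1, Rragc and Rragd). There were 2 such genes at 6 h (Flcn and Fnip1) and 4 at 12 h (Mitf, Flcn, Fnip1 and Rragd). In glucose starvation they were 2 at 3 h (Fnip2 and Rragd), 0 at 6 h and 4 at 12 h (Mitf, Flcn, Fnip1 and Rragd). Of all tested genes, 9.89%, 12.5% and 13.0% were called at least 2-fold higher at 3, 6 and 12 h of amino acid starvation. In glucose starvation these shares were 4.70%, 4.88% and 8.06%. At 12 h of amino acid starvation the median size of a change, without its sign, was 0.36 (log2) among the 10 genes and 0.66 among all genes. At 12 h of glucose starvation it was 0.85 among the 10 genes and 0.49 among all genes. The median signed change of the 10 genes was between 0.36 and 0.77 in all 6 comparisons, where that of all tested genes was between -0.07 and 0.06.

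**Figure D1:**
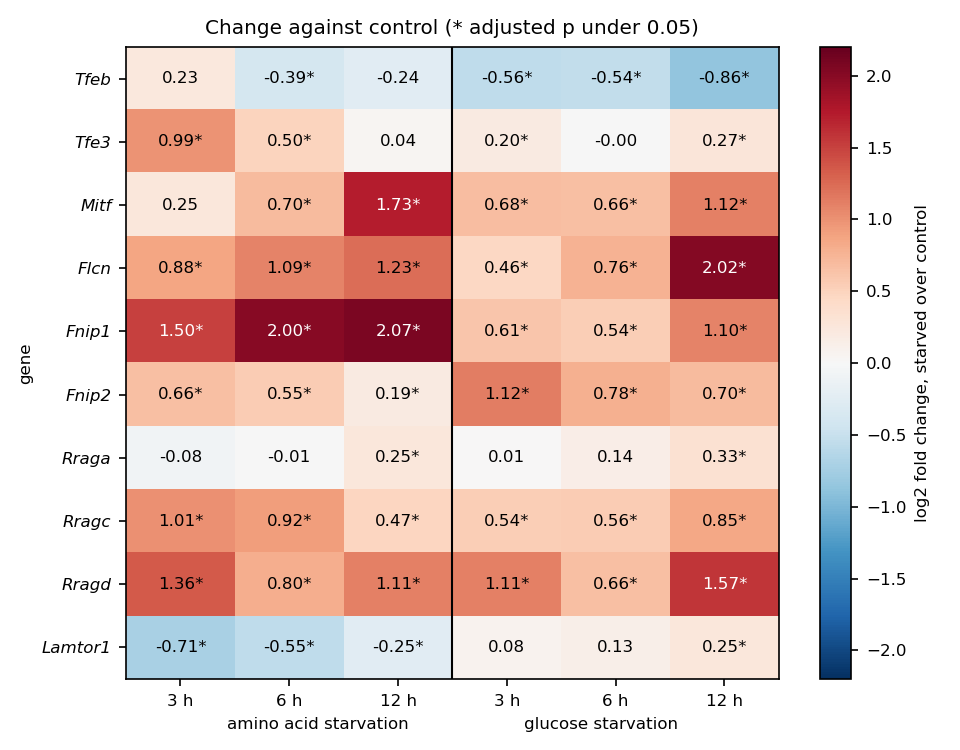
Log2 fold change of starved over control cells for each of the 10 genes (rows) in the 6 starved groups (columns), with an asterisk where the adjusted p was under 0.05. Fnip1 is the strongest row under amino acid starvation, up to 2.07, Flcn has the largest value under glucose starvation, 2.02 at 12 h, and Tfeb and Lamtor1 hold the called decreases.

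Among the factors, Tfe3, the most abundant of the family in these cells, rose early in amino acid starvation and overlapped control at 12 h. Tfe3 had 66.2 and 62.1 CPM in control cells. Amino acid starvation gave 127 and 127 CPM at 3 h, 94.7 and 86.3 CPM at 6 h and 67.0 and 65.3 CPM at 12 h. Over the glucose series Tfe3 had 74.8 and 72.2 CPM at 3 h, 64.8 and 63.3 CPM at 6 h and 78.6 and 75.8 CPM at 12 h. Every library of amino acid starvation at 3 and 6 h was above all other libraries, while those at 12 h overlapped control. Against control the change was 1.98-fold at 3 h of amino acid starvation (log2 fold change 0.99 ± 0.060, adjusted p = 1.9e-14 with edgeR). Throughout, errors of log2 fold changes and of their differences are SE, and errors of CPM, RPKM and shares are SD of 2 libraries. It was still called at 6 h (log2 fold change 0.50 ± 0.060, adjusted p = 2.5e-08 with edgeR). At 12 h it was not (log2 fold change 0.04 ± 0.061, adjusted p = 0.53 with edgeR). Glucose starvation gave small increases of Tfe3 that were called at 3 h (log2 fold change 0.20 ± 0.061, adjusted p = 0.0099 with edgeR) and at 12 h (log2 fold change 0.27 ± 0.061, adjusted p = 3.7e-04 with edgeR). At 6 h the log2 fold change was -0.00, with no call. The call at 3 h of glucose starvation was lost when control replicate 2 (log2 fold change 0.15) or the 3 h replicate 1 (0.17) was left out, and when libraries were scaled by their totals (0.03). That scaling gave a called 0.18 at 12 h of amino acid starvation.

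Tfeb, the best-known regulator of lysosomal genes in the family, was lower in all glucose-starved groups. Tfeb had 13.7 and 12.6 CPM in control cells. Cells without amino acids had 16.2 and 14.7 CPM at 3 h, 10.3 and 9.83 CPM at 6 h and 11.8 and 10.4 CPM at 12 h. Without glucose the values were 7.14 and 10.7 CPM at 3 h, 10.0 and 8.05 CPM at 6 h and 7.23 and 7.25 CPM at 12 h. All glucose-starved libraries were below both control libraries, and amino acid starvation placed Tfeb above control at 3 h and below it at 6 and 12 h without overlap. The decrease was called at 3 h of glucose starvation (log2 fold change -0.56 ± 0.14, adjusted p = 2.0e-03 with edgeR) and at 6 h (log2 fold change -0.54 ± 0.14, adjusted p = 2.1e-03 with edgeR). It was called at 12 h too, where Tfeb stood at 0.551 of control (log2 fold change -0.86 ± 0.14, adjusted p = 6.0e-06 with edgeR). Of the amino acid groups only that at 6 h passed (log2 fold change -0.39 ± 0.14, adjusted p = 0.014 with edgeR), and the values were 0.23 at 3 h and -0.24 at 12 h. Tfeb rested on 237 to 643 reads a library. Leaving out 1 library ended the glucose calls at 3 h (-0.29 without its replicate 1) and at 6 h (-0.39 without its replicate 2), and the amino acid call at 6 h (-0.33 without control replicate 1, -0.36 without its own replicate 2).

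Mitf, the melanocyte and osteoclast member of the family, was the scarcest of the 3 per length and was highest at 12 h of both starvations. Mitf had 2.97 and 2.17 CPM in control cells. Amino acid-starved cells had 3.03 and 3.07 CPM at 3 h, 3.78 and 4.53 CPM at 6 h and 7.65 and 9.42 CPM at 12 h. Glucose-starved cells had 4.46 and 3.76 CPM at 3 h, 3.71 and 4.41 CPM at 6 h and 5.53 and 5.60 CPM at 12 h. The libraries at 12 h were above all others in each series, and those at 12 h of amino acid starvation were the highest of all. At 12 h Mitf was 3.32-fold higher than control in amino acid starvation (log2 fold change 1.73 ± 0.18, adjusted p = 8.5e-10 with edgeR) and 2.17-fold higher in glucose starvation (log2 fold change 1.12 ± 0.18, adjusted p = 5.4e-06 with edgeR). Earlier calls were smaller: 0.70 at 6 h of amino acid starvation, 0.68 at 3 h of glucose starvation and 0.66 at 6 h of glucose starvation on the log2 scale. Each of these 3 was lost without control replicate 2 (0.49, 0.46 and 0.46), the glucose call at 3 h also without its replicate 1 (0.55) and that at 6 h without its replicate 2 (0.53). The gene had 99 to 499 reads a library. Melanocyte markers, nearly all of whose sum was the single gene Pmel, summed to 1.64 to 1.79 CPM at 12 h of amino acid starvation and 1.09 to 1.51 CPM in control cells.

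**Figure D2:**
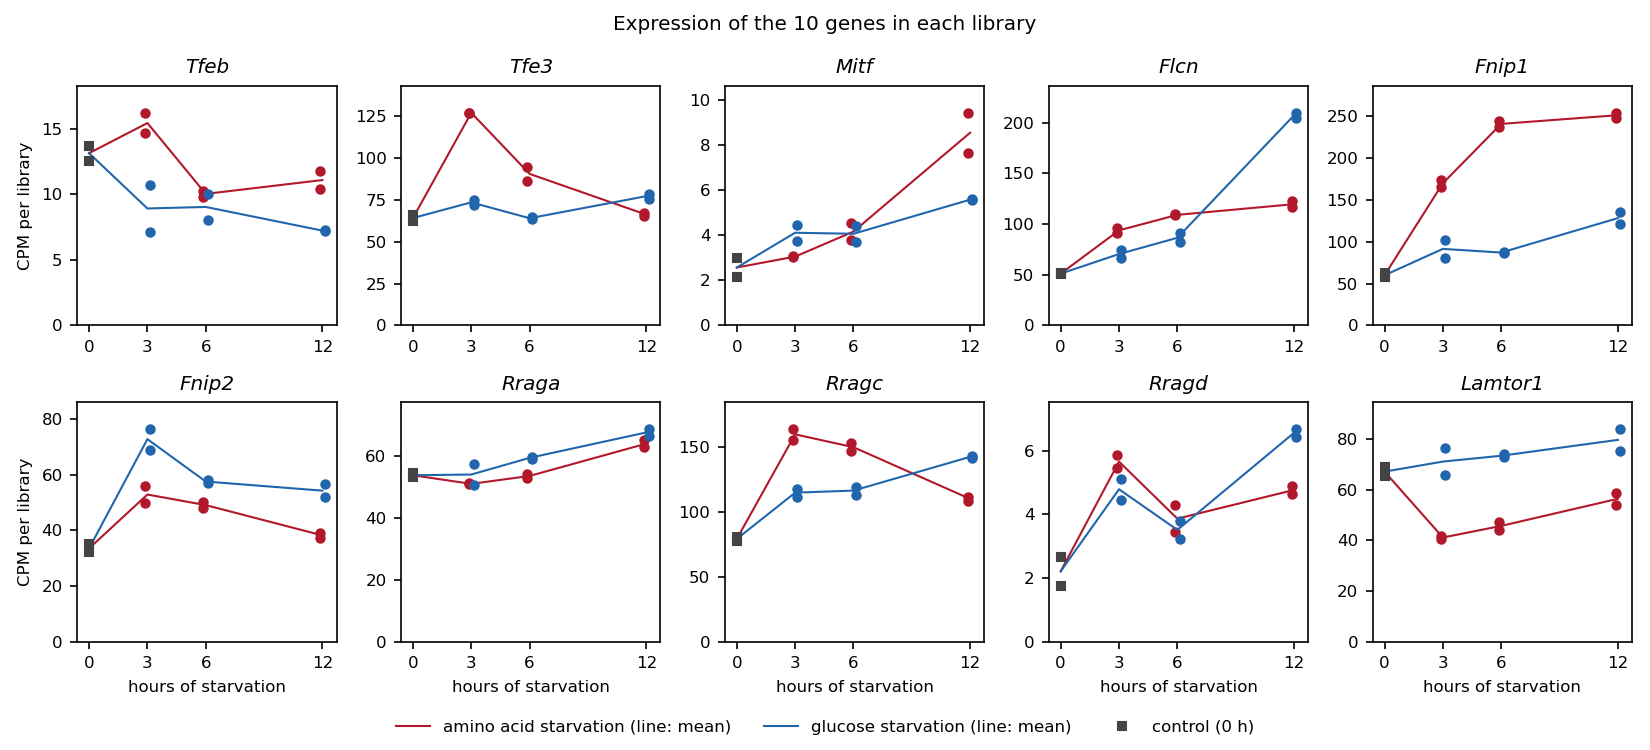
CPM of each gene in every library (points) against hours of starvation, with lines through group means, for amino acid starvation (red), glucose starvation (blue) and control (black squares at 0 h). Tfe3 peaks at 127 CPM in both libraries at 3 h of amino acid starvation, Flcn reaches 204 and 210 CPM at 12 h of glucose starvation, and Lamtor1 is lowest at 3 h of amino acid starvation.

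Folliculin RNA rose in every starved group, most of all late in glucose starvation. Flcn had 51.3 and 51.0 CPM in control cells. It then had, without amino acids, 96.2 and 91.5 CPM at 3 h, 109 and 109.6 CPM at 6 h and 122 and 117 CPM at 12 h. Without glucose Flcn reached 66.9 and 74.1 CPM at 3 h, 91.0 and 81.9 CPM at 6 h and 205 and 209.9 CPM at 12 h. No starved library overlapped control, and the 6 starved groups did not overlap each other, with the glucose group at 12 h far above the rest. Against control, Flcn was 4.05-fold higher at 12 h of glucose starvation (log2 fold change 2.02 ± 0.063, adjusted p = 3.7e-21 with edgeR). It was 2.34-fold higher at 12 h of amino acid starvation (log2 fold change 1.23 ± 0.062, adjusted p = 1.5e-16 with edgeR). At 3 h the log2 fold changes were 0.88 in amino acid and 0.46 in glucose starvation, and at 6 h 1.09 in amino acid and 0.76 in glucose starvation, all called with edgeR.

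Fnip1, a partner that folliculin needs for its activity toward RagC and RagD, was highest in amino acid starvation. Fnip1 had 57.5 and 62.2 CPM in control cells. The amino acid series gave 174 and 165 CPM at 3 h, 244 and 237 CPM at 6 h and 248 and 254 CPM at 12 h. The glucose series gave 102 and 80.8 CPM at 3 h, 87.9 and 86.0 CPM at 6 h and 135 and 121 CPM at 12 h. All libraries of amino acid starvation were above every glucose-starved library, and all starved libraries were above control. The change at 12 h of amino acid starvation was 4.19-fold (log2 fold change 2.07 ± 0.077, adjusted p = 3.2e-18 with edgeR). It was 2.14-fold at 12 h of glucose starvation (log2 fold change 1.10 ± 0.076, adjusted p = 2.7e-12 with edgeR). At 3 h of amino acid starvation it was already 2.83-fold (log2 fold change 1.50 ± 0.076, adjusted p = 4.5e-15 with edgeR). The 3 and 6 h glucose groups overlapped each other.

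Fnip2, the other partner, had its highest mean at 3 h in both series, though in amino acid starvation the 3 and 6 h libraries overlapped. Fnip2 had 34.9 and 32.1 CPM in control cells. Without amino acids it had 55.9 and 49.8 CPM at 3 h, 50.2 and 48.0 CPM at 6 h and 37.3 and 39.1 CPM at 12 h. In cells without glucose Fnip2 had 76.5 and 69.0 CPM at 3 h, 58.1 and 57.0 CPM at 6 h and 56.5 and 52.0 CPM at 12 h. The highest values were at 3 h of glucose starvation, where the change against control was 2.17-fold (log2 fold change 1.12 ± 0.075, adjusted p = 3.9e-13 with edgeR), and at 12 h the log2 fold change was 0.70. Under amino acid starvation the log2 fold change was 0.66 at 3 h and 0.55 at 6 h, both called. At 12 h of amino acid starvation a difference of 0.19 was called (adjusted p = 0.028 with edgeR). It was not called with DESeq2 (adjusted p = 0.061), nor without control replicate 2 (0.13), the 12 h replicate 1 (0.18) or the 12 h replicate 2 (0.11).

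Within families the levels were compared per length, as RPKM (CPM divided by the length of the row in kilobases). Tfe3 averaged 18.9 ± 0.86 RPKM in control cells, Tfeb 5.61 ± 0.35 RPKM and Mitf 0.526 ± 0.12 RPKM (SD, n = 2). The share of Mitf in the summed RPKM of the family was 6.73% ± 1.1 at 12 h of amino acid starvation and 4.23% ± 0.12 at 12 h of glucose starvation, against 2.09% ± 0.35 in control cells. The share of Tfeb was 18.2% ± 1.2 at 12 h of amino acid starvation and 11.4% ± 0.26 at 12 h of glucose starvation, against 22.4% ± 0.21 in control cells. Of the summed RPKM of the Fnip genes, Fnip1 held 88.5% ± 0.17 at 12 h of amino acid starvation and 59.3% ± 2.2 at 3 h of glucose starvation, the extremes of the series, against 67.6% ± 2.5 in control cells. Rragc held 97.7% to 98.7% of the RPKM of Rragc and Rragd in every group mean. RPKM depends on which transcript row stands for a gene: the next row of Fnip2 held 43.7% and that of Mitf 44.8% of the reads of the row used.

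**Figure D3:**
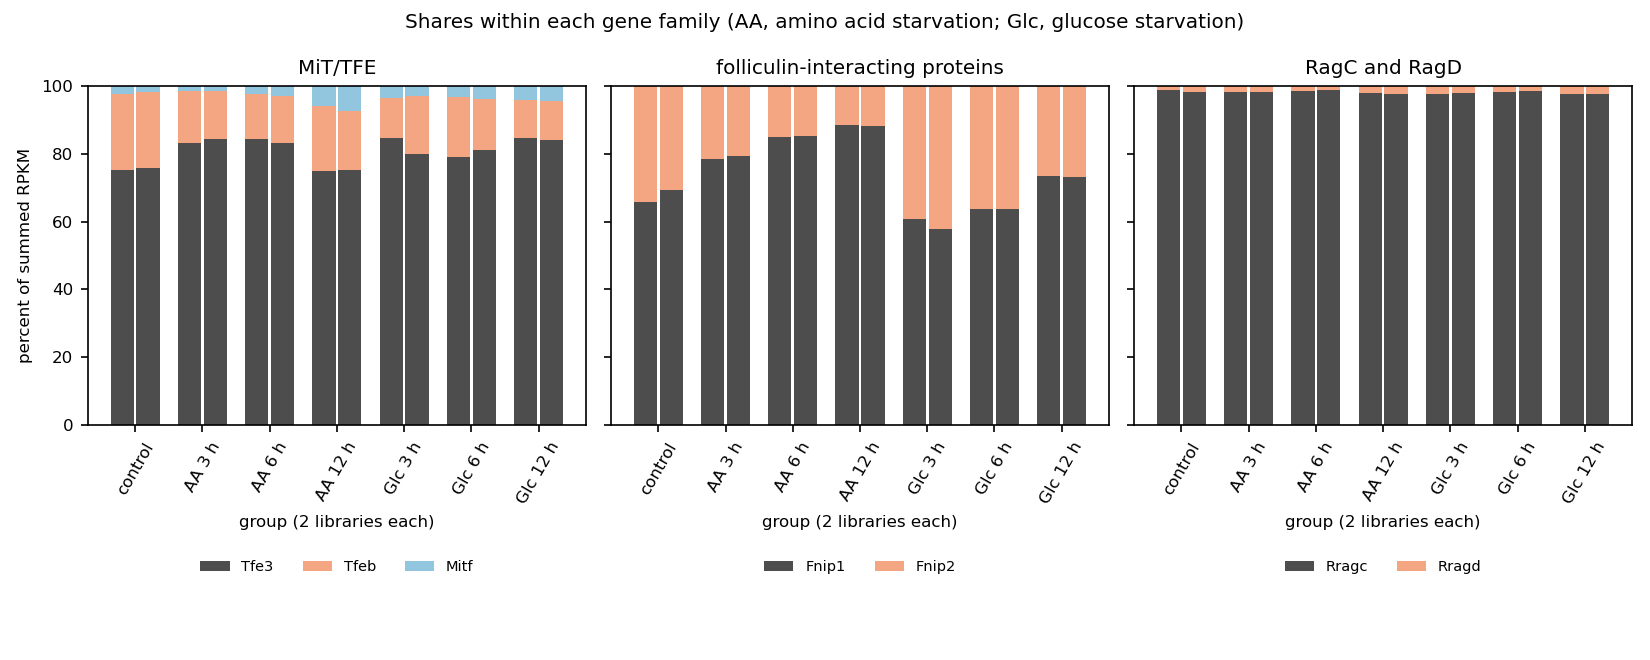
Share of the summed RPKM in each library (bars, percent) for the MiT/TFE factors, the folliculin-interacting proteins and RagC with RagD. Mitf widens to 6.73% at 12 h of amino acid starvation, Fnip1 spans 59.3% to 88.5% between groups, and Rragc stays at 97.7% or more in the group means.

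Of the Rag GTPases, Rragc, the abundant member of the RagC and RagD pair, rose in every starved group, but with a different course in each series. Rragc had 80.3 and 77.6 CPM in control cells. Amino acid-starved libraries held 155 and 164 CPM at 3 h, 146 and 153 CPM at 6 h and 108 and 111 CPM at 12 h. Glucose-starved libraries held 112 and 118 CPM at 3 h, 113 and 119 CPM at 6 h and 141 and 143 CPM at 12 h. No starved library overlapped control, and amino acid starvation was highest at 3 h whereas glucose starvation was highest at 12 h. The change against control was 2.02-fold at 3 h of amino acid starvation (log2 fold change 1.01 ± 0.056, adjusted p = 2.4e-15 with edgeR), and the log2 fold change was 0.47 at 12 h. In glucose starvation it was 0.54 at 3 h and largest at 12 h (log2 fold change 0.85 ± 0.056, adjusted p = 1.4e-13 with edgeR). In the mouse annotation used, Rragc shares 264 exonic bases with the antisense gene 4930535I16Rik, whose reads cannot be told apart from it without knowing whether strand was used.

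Rragd, the counterpart of RagC that was scarce here, also rose in all starved groups. Rragd had 1.74 and 2.67 CPM in control cells. Withdrawal of amino acids gave 5.46 and 5.85 CPM at 3 h, 4.28 and 3.45 CPM at 6 h and 4.64 and 4.89 CPM at 12 h. For Rragd without glucose the values were 5.12 and 4.45 CPM at 3 h, 3.80 and 3.22 CPM at 6 h and 6.69 and 6.43 CPM at 12 h. No starved library fell into the control range, though the control libraries themselves rested on only 80 and 122 reads. The largest changes were 2.97-fold at 12 h of glucose starvation (log2 fold change 1.57 ± 0.19, adjusted p = 2.6e-08 with edgeR) and, next to it, 2.56-fold at 3 h of amino acid starvation (log2 fold change 1.36 ± 0.19, adjusted p = 4.3e-07 with edgeR). The smallest was a log2 fold change of 0.66 at 6 h of glucose starvation, a call that was lost without control replicate 1 (0.39) or the 6 h replicate 1 (0.55).

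Rraga, which encodes the partner of RagC and RagD in the heterodimer, was the steadiest of the 10. Rraga had 53.1 and 54.4 CPM in control cells. Over amino acid starvation the values were 50.8 and 51.1 CPM at 3 h, 52.9 and 54.1 CPM at 6 h and 65.1 and 62.8 CPM at 12 h. Over glucose starvation the values were 50.5 and 57.4 CPM at 3 h, 59.1 and 59.6 CPM at 6 h and 66.3 and 68.8 CPM at 12 h. Only the 12 h libraries of both series and the 6 h glucose libraries lay clear above control, those at 3 h of amino acid starvation lay just below it, and the 3 h glucose libraries lay on either side of it. The called log2 fold changes were 0.25 at 12 h of amino acid starvation and 0.33 at 12 h of glucose starvation (adjusted p = 1.2e-03 and 7.3e-05 with edgeR). Its group means spanned 0.41 on the log2 scale, and 97.5% of tested genes had a wider span, against 27.4% for Fnip1 and 28.8% for Flcn. At 3 h of glucose starvation its direction depended on the scaling, with 0.01 as reported and -0.16 with library totals.

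Lamtor1, the lipid-anchored subunit that fixes Ragulator and the Rag GTPases to the lysosome, was lower in amino acid-starved cells and not in glucose-starved cells. Lamtor1 had 68.9 and 65.4 CPM in control cells. When amino acids were withdrawn it had 40.7 and 41.5 CPM at 3 h, 44.1 and 47.3 CPM at 6 h and 58.7 and 54.1 CPM at 12 h. When glucose was withdrawn Lamtor1 had 65.8 and 76.4 CPM at 3 h, 73.9 and 72.9 CPM at 6 h and 75.3 and 84.1 CPM at 12 h. Every amino acid-starved library was below both control libraries, and every glucose-starved library was above them, apart from the 3 h replicate 1, which lay between them. The decrease was deepest at 3 h of amino acid starvation, at 0.612 of control (log2 fold change -0.71 ± 0.074, adjusted p = 1.8e-09 with edgeR), and was -0.55 at 6 h and -0.25 at 12 h. In glucose starvation Lamtor1 was called only at 12 h, and higher (log2 fold change 0.25 ± 0.071, adjusted p = 4.2e-03 with edgeR), a call that was lost without the 12 h replicate 2 (0.17). With libraries scaled by their totals neither 12 h value was called (-0.12 in amino acid and 0.14 in glucose starvation). In the annotation used, Lamtor1 shares 600 exonic bases with the opposite-strand gene Lrrc51, for which 45 to 200 reads a library were listed.

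The direct comparison of amino acid with glucose starvation at the same time shows where the loss of amino acids and the loss of glucose differed, and both sides had the dialyzed serum and the change of medium. Of the 10 genes, 5 were higher and 2 lower in amino acid than in glucose starvation at 3 h, where 26.7% and 27.7% of all tested genes were. At 6 h 4 were higher and 3 lower, against 31.5% and 32.3% of all tested genes. At 12 h 3 were higher and 6 lower, against 32.5% and 31.6% of all tested genes. Fnip1 was higher in amino acid starvation at all 3 times, by 0.89 at 3 h, 1.47 at 6 h and 0.97 at 12 h (log2 fold change 1.47 ± 0.075, adjusted p = 4.8e-15 at 6 h with edgeR). Lamtor1 was lower at all 3 times, by log2 fold changes of -0.79, -0.68 and -0.50 (log2 fold change -0.79 ± 0.074, adjusted p = 3.9e-10 at 3 h with edgeR). Fnip2 was lower at all 3 times too, at -0.46, -0.23 and -0.51. Its next transcript row gave -0.23 and -0.04 at 3 and 6 h with no call, and the 6 h call was also lost without the amino acid 6 h replicate 2 (-0.20). Rraga was lower at 6 h only (-0.15), a call that was lost when any of 8 libraries was left out (-0.17 to -0.13). Tfeb was higher in amino acid starvation at 3 h (0.79) and 12 h (0.62). Mitf was higher at 12 h (0.62), a call that was lost without the amino acid 12 h replicate 2 (0.43).

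Flcn and Rragc changed sides between 3 and 12 h. Flcn was higher in amino acid than in glucose starvation at 3 h (log2 fold change 0.41 ± 0.063, adjusted p = 2.1e-06 with edgeR) and lower at 12 h (log2 fold change -0.79 ± 0.060, adjusted p = 1.6e-12 with edgeR). Rragc was likewise higher at 3 h (log2 fold change 0.48 ± 0.056, adjusted p = 2.8e-08 with edgeR) and lower at 12 h (log2 fold change -0.37 ± 0.056, adjusted p = 9.9e-07 with edgeR). With library totals in place of TMM the values at 12 h were -0.55 for Flcn and -0.13 for Rragc, both still called (adjusted p = 4.6e-09 and 0.031 with edgeR). Tfe3 was higher at 3 h (log2 fold change 0.79 ± 0.060, adjusted p = 5.8e-12 with edgeR) and -0.22 at 12 h, a value that became 0.01 with library totals. For Rragd the values were 0.24 at 3 h, with no call, and -0.46 at 12 h, with a call. That call was lost without the amino acid 12 h replicate 1 (-0.45), the glucose 12 h replicate 1 (-0.43) or with library totals (-0.22).

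The test of that difference itself, the change from 3 to 12 h in amino acid starvation minus the change in glucose starvation, called 6 of the 10 genes. They were 2 higher and 4 lower, where 21.7% of all tested genes were called higher, 25.7% lower and 47.4% in all. For Flcn the change from 3 to 12 h was 0.35 in amino acid starvation and 1.56 in glucose starvation (difference -1.20 ± 0.087, adjusted p = 2.0e-12 with edgeR). For Tfe3 it was -0.94 in amino acid and 0.07 in glucose starvation (difference -1.01 ± 0.085, adjusted p = 5.5e-11 with edgeR). For Rragc it was -0.54 in amino acid and 0.31 in glucose starvation (difference -0.85 ± 0.079, adjusted p = 3.8e-10 with edgeR). Mitf rose more in amino acid starvation, by 1.49 there and 0.44 in glucose starvation (difference 1.04 ± 0.25, adjusted p = 9.8e-04 with edgeR). The differences of Rragd (-0.70) and Lamtor1 (0.29) were each lost when any of 4 libraries was left out. These were the amino acid 12 h replicate 1, the glucose 3 h replicate 2, the glucose 12 h replicate 1 and an amino acid 3 h library (replicate 2 for Rragd, replicate 1 for Lamtor1). They gave values of -0.68 to -0.62 for Rragd and 0.17 to 0.28 for Lamtor1. No call was made for Tfeb, Fnip1, Fnip2 and Rraga, at -0.17, 0.08, -0.05 and 0.00. Without the glucose 3 h replicate 2, Tfeb (-0.51) and Fnip1 (0.22) were called.

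**Figure D4:**
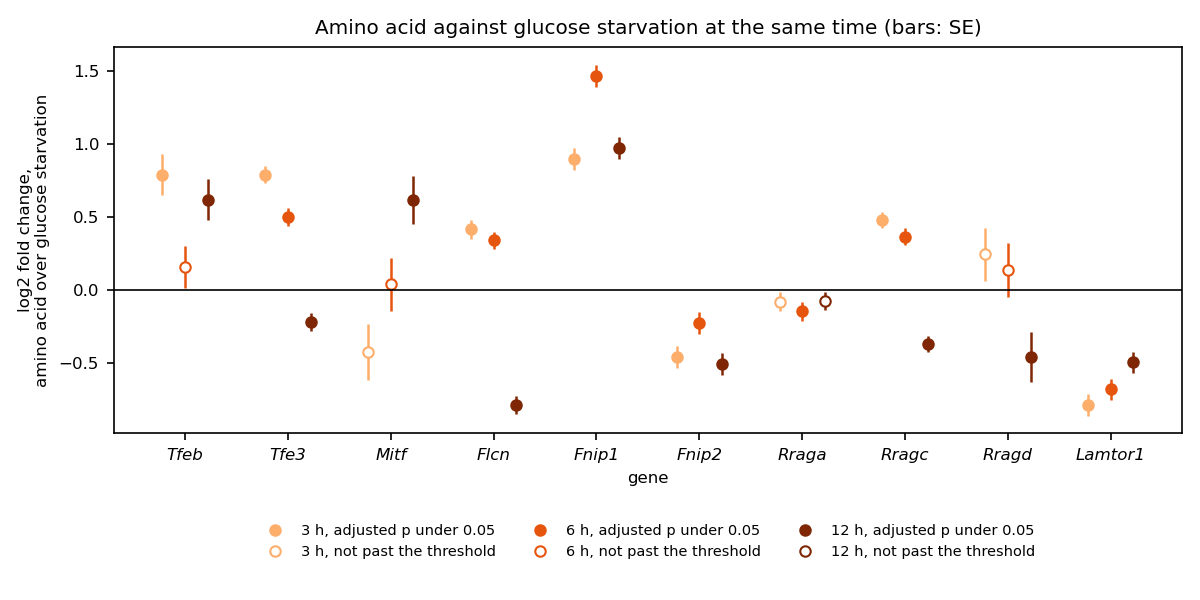
Log2 fold change of amino acid over glucose starvation at 3, 6 and 12 h (light to dark) for each gene, with bars of 1 SE and filled points where the adjusted p was under 0.05. Fnip1 stays above 0 and Lamtor1 and Fnip2 stay below it, while Flcn goes to -0.79 at 12 h after 0.41 at 3 h.

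The other subunits of the Ragulator and Rag machinery did not move as 1 unit. The list held Rragb, Lamtor2, Lamtor3, Lamtor4, Lamtor5, the lysosomal arginine sensor Slc38a9 and Tfec, a further MiT/TFE factor that was too low to test. Of the 6 tested, 4 were higher and 2 lower after 12 h without amino acids, and 4 were higher and 0 lower at 12 h of glucose starvation (4 and 2 with library totals). At 3 h the counts were 1 higher and 3 lower in amino acid starvation (1 and 5 with library totals) and 1 higher and 1 lower in glucose starvation (0 and 2 with library totals). Of all tested genes, 12 h without amino acids gave 34.9% called higher and 32.0% called lower, and 12 h without glucose gave 30.4% and 28.0%. At 3 h these shares were 27.9% and 32.1% in amino acid starvation and 20.3% and 23.1% in glucose starvation. Lamtor2 was 7.75 ± 0.46 CPM at 12 h of amino acid starvation and 25.1 ± 0.24 CPM at 12 h of glucose starvation, against 19.4 ± 0.70 CPM in control cells (SD, n = 2). It was lower in amino acid starvation than in control (log2 fold change -1.32 ± 0.12, adjusted p = 8.6e-11 with edgeR) and than in glucose starvation at the same time (log2 fold change -1.69 ± 0.12, adjusted p = 4.1e-13 with edgeR). Lamtor4, singled out after its values were seen, was also lower in amino acid than in glucose starvation at all 3 times, by log2 fold changes of -0.62, -1.34 and -0.98, all called. Lamtor3 was the reverse, at 64.1 ± 0.98 CPM at 12 h of amino acid starvation and 44.4 ± 1.9 CPM at 12 h of glucose starvation, against 36.1 ± 1.1 CPM in control cells. Its change in amino acid starvation was called (log2 fold change 0.83 ± 0.064, adjusted p = 1.9e-12 with edgeR). Slc38a9 was 7.51 ± 0.16 CPM in control cells, 3.95 ± 0.35 CPM at 3 h and 17.9 ± 0.85 CPM at 12 h of amino acid starvation (log2 fold change 1.25 ± 0.13, adjusted p = 1.5e-09 at 12 h with edgeR). At 3 h of glucose starvation Slc38a9 was likewise low, at 3.78 ± 0.57 CPM (log2 fold change -0.99, adjusted p = 5.1e-06 with edgeR). At 12 h of glucose starvation the log2 fold changes were 0.77 (adjusted p = 1.5e-05) for Slc38a9, 0.62 (adjusted p = 1.4e-05) for Rragb and 0.30 (adjusted p = 2.5e-04) for Lamtor3, all with edgeR.

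Upstream of the Rag GTPases, GATOR1 inactivates RagA and RagB, GATOR2 opposes it and KICSTOR places GATOR1 on the lysosome. Of their 11 genes, 3 were higher and 6 lower after 3 h without amino acids, and 7 were higher and 2 lower at 12 h, with medians of -0.35 and 0.54 on the log2 scale. In glucose starvation 3 were higher and 4 lower at 3 h and 7 higher and 1 lower at 12 h, with medians of 0.00 and 0.30. Among all tested genes, calls higher and lower made up 34.9% and 32.0% at 12 h of amino acid starvation and 30.4% and 28.0% at 12 h of glucose starvation, with medians of 0.06 and 0.01. At 3 h these shares were 27.9% and 32.1% in amino acid and 20.3% and 23.1% in glucose starvation, with medians of -0.07 and -0.04. With library totals the 11 genes were 2 higher and 7 lower at 3 h and 8 higher and 1 lower at 12 h in amino acid starvation, and 2 higher and 5 lower at 3 h and 5 higher and 4 lower at 12 h in glucose starvation. Depdc5, a GATOR1 subunit, moved in opposite directions at 12 h. It was 49.7 ± 3.8 CPM in amino acid-starved and 17.7 ± 1.3 CPM in glucose-starved cells, against 34.3 ± 0.30 CPM in control cells (SD, n = 2). Its log2 fold change against control was 0.54 (adjusted p = 1.9e-06) in amino acid and -0.96 (adjusted p = 1.9e-10) in glucose starvation, and between the starvations 1.49 (adjusted p = 5.9e-15), all with edgeR. The amino acid value of Depdc5 is given because it lies opposite the glucose one and was chosen after it was seen. Among the smallest p values at 12 h of amino acid starvation were those of Mios (0.77, adjusted p = 1.8e-09) and Seh1l (0.56, adjusted p = 4.7e-09), as log2 fold changes with edgeR. Mios (0.81, adjusted p = 1.2e-09) and Seh1l (0.46, adjusted p = 2.3e-07) were also higher at 12 h of glucose starvation with edgeR. The smallest p values at 12 h of glucose starvation included, beside that of Depdc5, the p of Itfg2 (0.80, adjusted p = 3.8e-10), as a log2 fold change with edgeR. Itfg2 was also higher at 12 h of amino acid starvation (0.68, adjusted p = 5.9e-09 with edgeR).

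Genes that govern where MiT/TFE factors reside include calcineurin subunits, the YWHA adaptor proteins that hold phosphorylated TFEB in the cytosol, the exportin Xpo1 and mTORC1 components. Of 15 such genes, 8 were higher and 3 lower after amino acid starvation for 3 h, and 4 were higher and 7 lower after 12 h. In glucose starvation they were 4 higher and 2 lower at 3 h and 2 higher and 8 lower at 12 h. The background, over all tested genes, was 27.9% called higher and 32.1% called lower after 3 h without amino acids. After 12 h without amino acids it was 34.9% and 32.0%. Without glucose the background was 20.3% and 23.1% after 3 h, and 30.4% and 28.0% after 12 h. Xpo1, which carries TFEB out of the nucleus, was 173 ± 6.3 CPM at 12 h of amino acid starvation, against 328 ± 26 CPM in control cells (SD, n = 2). Its log2 fold change there was -0.92 ± 0.063 (adjusted p = 1.4e-13 with edgeR). The YWHA genes with the smallest p, as log2 fold changes, were Ywhaz (-0.69, adjusted p = 3.4e-11) and Ywhag (-0.65, adjusted p = 2.1e-12) at 12 h of amino acid starvation, with edgeR. At 12 h of glucose starvation they were Ywhah (-0.45, adjusted p = 2.3e-08), Ywhaz (-0.46, adjusted p = 1.3e-07) and Ywhaq (-0.37, adjusted p = 1.0e-06), all as log2 fold changes with edgeR. At 3 h of amino acid starvation Ywhag (0.59), Ywhaz (0.32) and Ywhah (0.27) were instead called higher. Xpo1 (-0.18) was called lower there and Ywhaq (0.10) was not called. At 3 h of glucose starvation Ywhaz (0.27) was the only one of these genes called. Rheb, singled out after its values were seen, was called higher at 3, 6 and 12 h of both starvations. Its log2 fold changes were 1.29, 1.55 and 0.70 in amino acid and 0.81, 0.58 and 0.58 in glucose starvation. With library totals the counts for amino acid starvation became 4 higher and 4 lower at 3 h and 6 higher and 6 lower at 12 h, and for glucose starvation they became 2 higher and 5 lower at 3 h and 1 higher and 10 lower at 12 h.

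Lysosomal and autophagy genes that are known MiT/TFE targets, 34 in number, were more often called higher than lower in all starved groups, except at 3 h of amino acid starvation when libraries were scaled by their totals. In amino acid starvation 17 were higher and 8 lower at 3 h, 20 and 8 at 6 h, and 22 and 6 at 12 h, with medians of 0.17, 0.29 and 0.58 on the log2 scale. In glucose starvation 20 were higher and 1 lower at 3 h, 19 and 3 at 6 h, and 27 and 2 at 12 h, with medians of 0.28, 0.34 and 0.54. Of all tested genes, 27.9%, 32.3% and 34.9% were called higher at 3, 6 and 12 h of amino acid starvation and 20.3%, 23.3% and 30.4% at 3, 6 and 12 h of glucose starvation, with medians from -0.07 to 0.06. Called lower were 32.1%, 33.3% and 32.0% at these times of amino acid starvation and 23.1%, 24.2% and 28.0% at those of glucose starvation. With library totals the count at 3 h of amino acid starvation turned to 11 higher and 14 lower, with a median of -0.00, and that at 6 h to 16 and 9. In glucose starvation library totals gave 13 higher and 3 lower at 3 h, 17 and 8 at 6 h, and 24 and 3 at 12 h, with medians of 0.11, 0.20 and 0.44. That scaling moves the median of all genes by -0.18 at 3 h of amino acid starvation and by -0.17 at 3 h of glucose starvation. Between the starvations, 6 of the targets were higher and 16 lower in amino acid than in glucose starvation at 3 h (6 and 18 with library totals). At 6 h 14 were higher and 13 lower (14 and 12 with library totals). At 12 h 13 were higher and 16 lower, which became 17 higher and 10 lower with library totals. Of all tested genes, 26.7% were called higher and 27.7% lower in that comparison at 3 h, 31.5% and 32.3% at 6 h, and 32.5% and 31.6% at 12 h.

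Sqstm1, the autophagy receptor p62, was called with some of the smallest p at 12 h of both starvations. It was 768 ± 8.0 CPM in amino acid-starved and 848 ± 6.7 CPM in glucose-starved cells, against 247 ± 12 CPM in control cells (SD, n = 2). The log2 fold changes were 1.64 (adjusted p = 4.4e-21) in amino acid and 1.78 (adjusted p = 1.6e-21) in glucose starvation with edgeR. Earlier the starvations differed more. Sqstm1 was 1368 ± 2.1 CPM at 3 h and 1243 ± 12 CPM at 6 h of amino acid starvation. In glucose starvation it was 569 ± 26 CPM at 3 h and 452 ± 2.4 CPM at 6 h. Mcoln1, the calcium channel of the lysosome, was 36.8 ± 1.4 CPM in control cells, 46.5 ± 2.1 CPM at 3 h, 56.5 ± 0.12 CPM at 6 h and 112 ± 3.3 CPM at 12 h of glucose starvation (log2 fold change 1.60 ± 0.063, adjusted p = 8.4e-19 at 12 h with edgeR). In amino acid starvation Mcoln1 was 33.4 ± 0.99 CPM at 3 h, 53.3 ± 2.2 CPM at 6 h and 111 ± 0.43 CPM at 12 h. Atp6v0d1, a subunit of the proton pump, rose at 12 h of amino acid starvation (log2 fold change 1.57 ± 0.058, adjusted p = 8.4e-20 with edgeR). Atp6v0d1 was 145 ± 7.8 CPM at 12 h of glucose starvation, against 79.05 ± 2.4 CPM in control cells. Ctsa, a lysosomal carboxypeptidase, rose at 12 h of glucose starvation (log2 fold change 1.13 ± 0.057, adjusted p = 2.8e-16 with edgeR). Ctsa was 208 ± 0.46 CPM at 12 h of amino acid starvation, against 159 ± 5.7 CPM in control cells. Cln3, a protein of the lysosomal membrane, had the smallest p of the list at 12 h of amino acid starvation. It was 38.1 ± 4.9 CPM there and 1.65 ± 0.17 CPM in control cells (log2 fold change 4.53 ± 0.14, adjusted p = 1.6e-21 with edgeR). Cln3 shares 442 exonic bases with the opposite-strand gene Apobr, Sqstm1 580 with Mrnip, and Ctsa 495 with Pltp, in the annotation used. These values are uncertain if strand was not used. Targets that were lower at 12 h of amino acid starvation were Psap, Wipi1, Atp6v1a, Pip4p1, Ppargc1a and Vps18, and at 12 h of glucose starvation Sgsh and Glb1. Of these Ppargc1a was near the floor, at 0.87 CPM in control cells and 0.12 CPM at 12 h of amino acid starvation.

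**Figure D5:**
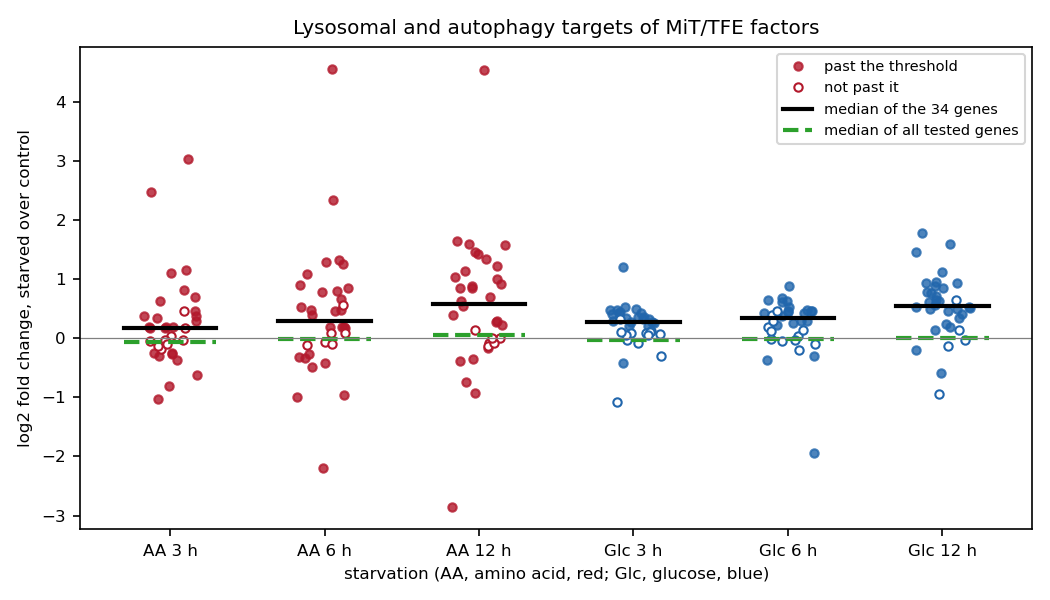
Log2 fold change of starved over control cells for each of 34 lysosomal and autophagy targets of MiT/TFE factors (points; filled where the adjusted p was under 0.05), with the median of the 34 (black) and of all tested genes (green dashes). The median of the targets is 0.58 at 12 h of amino acid starvation and 0.54 at 12 h of glucose starvation, and single genes range widely around it.

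Across the 7 group means of log2 CPM, with 9125 genes compared, the genes most like Fnip1 by Pearson's r were Zbtb44 (0.991), Ern1 (0.989) and Rif1 (0.989). Those most like Flcn were Epb41l4aos (0.984), Zscan25 (0.973) and Napg (0.971). For Mitf they were Azi2 (0.981), Med31 (0.979) and Hexa (0.978), and for Rragc Erfe (0.991), Zzz3 (0.977) and Fxr1 (0.976). For Fnip2 they were Soat1 (0.966), Golim4 (0.964) and Slc20a1 (0.954), for Rragd Zfp513 (0.945), Slc23a2 (0.928) and Adipor1 (0.921), and for Tfeb Mmadhc (0.953), Acap3 (0.938) and Bahd1 (0.932). Tfe3, Rraga and Lamtor1 spanned less than 1 on the log2 scale and were left out. Among the 10 genes themselves the highest r was 0.781, between Mitf and Rraga, and Flcn and Rragd had 0.777. With so few genes to choose from, these values cannot be set against the best of 9125. These are descriptions over 7 points, and the best of 9125 genes will be high over so few.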

How the data were processed

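Total RNA of 14 libraries, 2 in each of 7 groups taken from the sample labels, was analysed. The values deposited by the authors are counts of reads in whole numbers, 1 row a transcript, beside a column of transcript lengths (an other, fixed measure), and they show no normalisation. Per the submitters' processing notes, STAR and bedtools were used with the build GRCm39; versions, annotation, counting rule and use of strand are not given in the sources used here. Of 67457 rows, 58 name no gene, with 0.0% of the reads. Each of 40800 genes was represented by its row with the most reads; 13432 genes have several rows, and rows that share reads cannot be told apart. The rows were not added up, since in the 7 described genes with several rows the next row held 43.7% to nearly all of the reads of the first.

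Counts were tested in R 4.3.3 with edgeR 4.0.16 (TMM factors of 0.931 to 1.16, a filter on low counts, quasi-likelihood fit of 7 group means, 7 residual degrees of freedom, two-sided, Benjamini-Hochberg over 17696 genes, threshold 0.05). The biological coefficient of variation was 5.78%. CPM and RPKM were computed from the counts, the TMM-scaled library sizes and the deposited lengths. With 2 libraries against 2, an exact permutation test cannot go below 0.333, so that no such test was used. The rows used, 1 a gene, held 35270758 to 55349652 reads a library, a sum that leaves out the other rows. The procedure was also run on simulated data in which few genes changed and all had the same spread. That run does not test the scaling or the calls where many genes change, as here.

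The 10 genes, all described whatever their values, and the gene lists were chosen with earlier results of these data known. From each list the text names up to 3 called genes with the smallest p at 12 h of each starvation, and for each gene spanning at least 1 (log2) the 3 most correlated genes. One list gene that this rule names is not reported here. Alternatives were DESeq2 1.42.0, RLE factors, library totals, no filter, a stricter filter, only the groups compared, the next transcript row, a block on the replicate number, and each library left out in turn. Promoter sequences are from RefSeq on GRCm38.p6, and gene overlaps from an annotation of GRCm38, builds other than that of the counts, used for names and letters and not for reads.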

Additional observations from a re-analysis of the deposited data

Results flagged for a closer look

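For 6 of the 10 genes the change from 3 to 12 h differed between the starvations by a direct test of the difference (edgeR, amino acid minus glucose starvation), which 47.4% of all tested genes also passed. The difference was -1.01 for Tfe3, -1.20 for Flcn, -0.85 for Rragc and -0.70 for Rragd on the log2 scale. It was 1.04 for Mitf and 0.29 for Lamtor1, again on the log2 scale. Each arm has 2 libraries a time, and those of Rragd and Lamtor1 were lost when single libraries were left out, as given above.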

How the results depend on the processing

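The numbers called, of the 10 genes and of all tested genes, stayed within 1.5 times of the reported ones in 180 of 180 recomputations with other tools, scalings, filters and rows, and in 335 of 336 that left out 1 library. The exception was the number called at 3 h of glucose starvation, which ranged from 5 to 8 when single libraries were left out (8 with all libraries), with 5 without replicate 1 of that group. For the difference of the 3 h to 12 h changes, 4 to 6 of the 10 genes were called when single libraries were left out. For single genes, 916 of 960 values kept direction and call under the other settings, 28 lost the call, 13 gained it and 3 changed direction; leaving out 1 library kept 1619 of 1680, with 47 calls lost, 14 gained and 0 reversed. The 3 changes of direction came with library totals in place of TMM: Rraga at 3 h of glucose starvation against control (-0.16), Rraga in amino acid over glucose starvation at 12 h (0.16) and Tfe3 in the same comparison (0.015). Library totals moved the median of all genes by -0.18, -0.08 and 0.13 at 3, 6 and 12 h of amino acid starvation and by -0.17, -0.13 and -0.10 at 3, 6 and 12 h of glucose starvation (log2). The next transcript row ended the calls of Mitf at 3 and 6 h of glucose starvation (0.56 and 0.44) and between starvations at 12 h (0.43). The replicate numbers did not pair the libraries: of 21 correlations of replicate differences between groups, from -0.03 to 0.05, 0 were over 0.1. A fit with a block on the replicate number moved the call of 1 of 120 values, Lamtor1 at 12 h against 3 h of glucose starvation (0.16, adjusted p = 0.042 with edgeR, and 0.055 without the block). Depth limits Mitf and Rragd most, with 80 to 499 reads a library.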
